A study of Mus musculus with 6 samples.

Results

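The genes described are 10 mouse genes for enzymes that use molecular oxygen to remove methyl groups from chromatin: the histone demethylases Kdm3a, Kdm4a, Kdm4b, Kdm4c, Kdm5b, Kdm5c and Kdm6b, and the DNA demethylating enzymes Tet1, Tet2 and Tet3. They were chosen by name, and the estimated counts and TPM of all their annotated transcripts were summed, which gave 10 genes of the 35968 with a transcript in the libraries. RNA-seq was done on MS-5, a mouse bone marrow stromal cell line that sustains blood-forming cells in culture. In 3 libraries the MS-5 cells had been cultured alone (MS-5 only, MO1 to MO3), and in the other 3 they had been kept in direct contact with SKM-1, a human acute myeloid leukaemia (AML) cell line, for 24 hr at 4 AML cells per stromal cell (co-culture, MC1 to MC3). Both groups were grown in the same serum-supplemented RPMI medium, and the 2 cell types were separated before RNA extraction. All results therefore concern 1 stromal line and 1 AML line, and p-values measure the spread between these libraries, which the labels do not tie to separate cultures.

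The JmjC demethylases and the TET enzymes belong to a single enzyme class, the dioxygenases that need iron(II), 2-oxoglutarate and oxygen, and they release succinate with each methyl group that they oxidise. KDM3 and KDM4 enzymes act on lysine 9 of histone H3 (H3K9), KDM4 enzymes also on H3K36, KDM5 enzymes on H3K4 and KDM6 enzymes on H3K27, while TET enzymes oxidise 5-methylcytosine in DNA. Because of this chemistry their activity falls when oxygen is scarce or when succinate, fumarate or 2-hydroxyglutarate build up, and Kdm3a and Kdm4b are known targets of the hypoxia-inducible factor HIF-1, so that more mRNA can accompany less activity. Only mRNA was measured here.

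Sequencing depth was alike in the groups, between 23978881 and 27182453 estimated counts for the MS-5 only libraries and between 26258451 and 35694987 for the co-culture libraries. MO2 and MC3 stood apart from the other 4 libraries, with a count for 65170 and 66456 transcripts against 51533 to 57350, and with 6.07% and 5.92% of their counts on mitochondrial genes against 10.6% to 13.2%. Since 1 such library lies in each group, the changes of those of the 10 genes that passed in any of these fits are given over all 6 libraries, with a covariate that marks MO2 and MC3, and without these 2 libraries. No label marks MO2 and MC3, so the covariate was drawn from the same libraries that it is fitted to. It is not an independent factor, and the fit without the 2 libraries shares the other 4 with it. For related genes, a test over 6 libraries means edgeR's test without the covariate, and calls by DESeq2's Wald test, limma or library size scaling are named as such. Stromal markers fitted the label: 14 genes such as Col1a1 and Vim together reached 15950 to 19374 CPM (counts scaled to a common library total) in MS-5 only and 18284 to 22240 CPM in co-culture, and none of them passed the test over 6 libraries (3 were higher and 1 lower with the covariate). The 15 leukocyte markers together reached 30.5 to 58.8 CPM in MS-5 only and 66.8, 244 and 87.1 CPM in MC1, MC2 and MC3. Of the 9 that could be tested, 5 were higher in co-culture over 6 libraries (6 with the covariate). The sum mixes unlike changes, with a positive log2 fold change for 7 of the 9 and a negative one for 2. Those 2, Lyz2 and Cd68, had means of 23.0 and 16.4 CPM in MS-5 only and 17.7 and 12.9 CPM in co-culture. By mean, Coro1a went from 0.451 to 33.2 CPM and Spi1 from 0.333 to 25.0 CPM, with 75.4 and 56.4 CPM in MC2. None of the 15 was at 0 in all libraries, and 1, Kit, was at 0 throughout MS-5 only.

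All 10 genes were expressed above the filter on low counts. Over all 6 libraries without the covariate, most of them did not move beyond the spread between libraries. Kdm5b was the only one that rose in co-culture over all 6 libraries by edgeR's quasi-likelihood test (adjusted p-value under 0.1), and none fell. That is 1 of 10 against 4.38% of the 13221 genes tested (3.71% higher in co-culture). With the covariate 5 of the 10 passed as higher, namely Kdm3a, Kdm4b, Kdm5b, Kdm6b and Tet3, against a background of 13.9% called higher and 30.2% called in either direction. The same 5 genes passed when MO2 and MC3 were left out, against 13.0% called and 8.33% called higher. The median log2 fold change of the 10 genes was 0.25 over 6 libraries and 0.47 with the covariate, beside -0.02 and -0.01 for all genes tested. In a bulk sample of this kind, fewer cells of a type and less RNA per cell cannot be told apart.

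**Figure D1:**
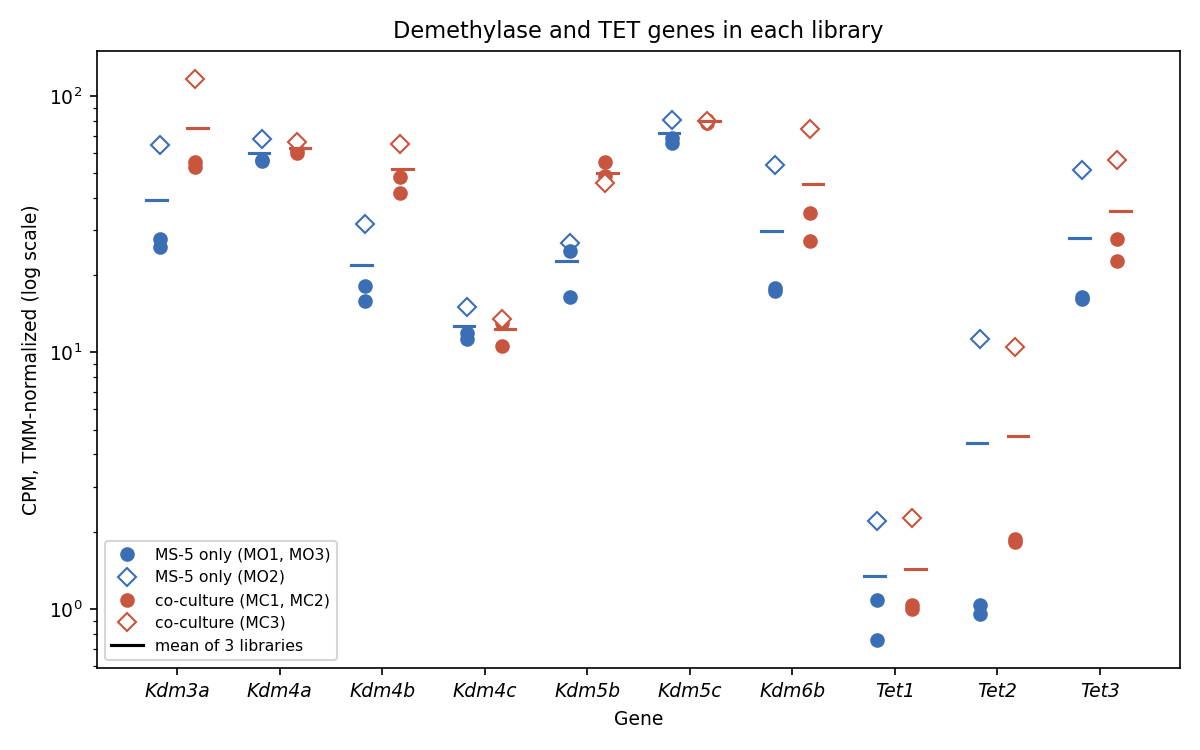
Expression of each of the 10 genes (x axis) in each library as CPM normalized by TMM (y axis, log scale), with MS-5 only in blue, co-culture in red, MO2 and MC3 as open diamonds and bars for the mean of 3 libraries. The open diamonds are the highest of their group for 8 of the 10 genes, and the groups separate only for Kdm4b and Kdm5b.

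Levels of single genes are given as CPM normalized by TMM, edgeR's scaling between libraries. Kdm4b and Kdm5b were the only genes of the 10 for which every co-culture library exceeded every MS-5 only library, a pattern seen for 11.6% of all genes tested. MO2 was the highest MS-5 only library and MC3 the highest co-culture library for 8 of the 10, all but Kdm5b and Kdm5c, where 33.0% of all genes tested show this. Much of the spread between replicates of these genes was therefore the distance of MO2 and MC3 from the rest. What sets these 2 libraries apart was not tested.

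Kdm3a removes mono- and dimethyl marks from H3K9 and lies on chromosome 6 (71588972 to 71632990, minus strand, GRCm38). Its level was 25.8, 64.1 and 27.8 CPM in MO1, MO2 and MO3, and 53.0, 55.2 and 116 CPM in MC1, MC2 and MC3. MO2 reached above MC1 and MC2, so the groups overlapped, but within each set of like libraries the co-culture value was the higher one, by a log2 ratio of 1.01 for MC1 and MC2 over MO1 and MO3 and of 0.86 for MC3 over MO2. Over 6 libraries the log2 fold change was 0.93 (SE 0.47, edgeR adjusted p-value 0.447) and did not pass. With the covariate the size was 0.96, the SE fell to 0.072, and the gene passed with an adjusted p-value of 0.00729 in the same test. Without MO2 and MC3 it was 1.03 (edgeR adjusted p-value 0.077). Leaving out MC3 alone moved it to 0.46 and leaving out MO2 alone to 1.48.

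Kdm4b, which demethylates trimethylated H3K9, lies on chromosome 17 (56326062 to 56402870, plus strand). It measured 15.8, 31.8 and 18.1 CPM in MS-5 only and 48.3, 41.9 and 64.7 CPM in co-culture. The lowest co-culture library, MC2, was above the highest MS-5 only library, MO2, and the means were 21.9 ± 8.62 and 51.6 ± 11.8 CPM (SD, n = 3). This was the largest change among the 10 genes, a log2 fold change of 1.24 (SE 0.31, 95% interval 0.49 to 1.98), but its edgeR adjusted p-value of 0.117 missed the threshold. It passed with the covariate (log2 fold change 1.28, edgeR adjusted p-value 0.0104), without MO2 and MC3 (1.43, edgeR adjusted p-value 0.077) and in DESeq2's Wald test (1.25, adjusted p-value 0.00610).

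The other H3K9 and H3K36 demethylases of the family had changes near 0. Kdm4a, on chromosome 4 (118136957 to 118180043, minus strand), measured 56.2, 68.0 and 55.5 CPM in MS-5 only and 61.5, 59.7 and 65.8 CPM in co-culture. All 3 co-culture values lay inside the MS-5 only range, and the log2 fold change of 0.06 had a 95% interval from -0.26 to 0.38. Kdm4c, on the same chromosome (74242497 to 74405860, plus strand), measured 11.9, 15.0 and 11.3 CPM in MS-5 only and 10.6, 13.0 and 13.4 CPM in co-culture. The log2 fold change was -0.04 (95% interval -0.48 to 0.40), and its sign turned to 0.05 without MO2 and MC3. The intervals of both genes end below the estimate for Kdm4b.

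Kdm5b, an H3K4 demethylase also known as JARID1B, lies on chromosome 1 (134560171 to 134635285, plus strand). It measured 16.5, 26.7 and 24.8 CPM in MO1, MO2 and MO3 and 48.5, 55.3 and 45.9 CPM in MC1, MC2 and MC3. The groups were far apart, with means of 22.7 ± 5.44 and 49.9 ± 4.87 CPM (SD, n = 3), and MC3 was the lowest of the co-culture libraries. The log2 fold change was 1.14 (SE 0.21, 95% interval 0.64 to 1.64, edgeR adjusted p-value 0.0734), 1.14 with the covariate (edgeR adjusted p-value 0.0164) and 1.35 without MO2 and MC3 (edgeR adjusted p-value 0.077). The call over 6 libraries was close to the threshold: it was kept without MC3 (edgeR adjusted p-value 0.0722) and lost without any one of the other libraries (0.133 without MC1, 0.151 without MC2, and 0.300, 0.149 and 0.290 without MO1, MO2 and MO3), while the log2 fold change stayed between 0.98 and 1.27. It was also lost with library size scaling (adjusted p-value 0.113), with protein-coding transcripts alone (0.117) and in limma on log2 TPM (0.253 to 0.359). Of all genes, the fit with protein-coding transcripts alone called 3, and the fits without MO1, MO2 or MO3 called 0. The losses in those fits are therefore not particular to Kdm5b.

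The co-culture library with the most leukocyte marker counts, MC2, was also the one with the most Kdm5b. For Kdm5b the excess over the MS-5 only mean in MC2 was 1.33 times that of MC1 and MC3, and for Kdm3a and Kdm4b it was 0.350 and 0.578 times. Without MC2 and with the covariate, the log2 fold changes were 1.04 for Kdm5b, 0.93 for Kdm3a and 1.30 for Kdm4b, with edgeR adjusted p-values of 0.0156, 0.00229 and 0.00265. Kdm6b passed there too (0.75, adjusted p-value 0.0150) and Tet3 did not (0.32, adjusted p-value 0.111), so that 4 of the 10 were called higher against 10.9% of all genes. The part of the leukocyte signal in these levels was not tested otherwise.

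Kdm5c, the X-linked H3K4 demethylase (chromosome X, 152233020 to 152274535, plus strand), measured 68.4, 80.7 and 65.7 CPM in MS-5 only and 80.7, 78.5 and 80.0 CPM in co-culture. The co-culture libraries were nearly equal, and MO2 sat among them. The log2 fold change was 0.16 (95% interval -0.15 to 0.46, edgeR adjusted p-value 0.694). Kdm5b and Kdm5c act on the same mark, and the 95% intervals of their changes in co-culture did not overlap.

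Kdm6b (JMJD3), which removes the repressive H3K27 trimethyl mark and is an early gene of inflammatory responses, lies on chromosome 11 (69398508 to 69413675, minus strand). It measured 17.8, 53.7 and 17.3 CPM in MS-5 only and 34.8, 27.1 and 74.1 CPM in co-culture. MO2 stood above MC1 and MC2, and the spread of the groups was as large as their difference. The log2 fold change over 6 libraries was 0.61 (SE 0.57, edgeR adjusted p-value 0.748). It was 0.69 with the covariate (SE 0.13, edgeR adjusted p-value 0.0192) and 0.84 without MO2 and MC3 (edgeR adjusted p-value 0.0778). Within the sets the log2 ratio was 0.82 for MC1 and MC2 over MO1 and MO3 and 0.46 for MC3 over MO2. Leaving out MC3 alone moved the log2 fold change to 0.06 and leaving out MO2 alone to 1.36.

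Tet3 was the most abundant TET gene and lies on chromosome 6 (83362373 to 83459084, minus strand). It measured 16.4, 51.3 and 16.2 CPM in MS-5 only and 22.8, 27.7 and 56.0 CPM in co-culture. MO2 and MC3 were nearly level with each other (log2 ratio 0.13), whereas MC1 and MC2 were above MO1 and MO3 (log2 ratio 0.63). The log2 fold change of 0.34 over 6 libraries did not pass (edgeR adjusted p-value 0.896). It was 0.45 with the covariate (edgeR adjusted p-value 0.0623) and 0.65 without MO2 and MC3 (edgeR adjusted p-value 0.0812).

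Tet2, which is often mutated in myeloid leukaemia, was scarce in the stromal line (chromosome 3, 133463679 to 133545139, minus strand). Its levels were 1.04, 11.3 and 0.952 CPM in MS-5 only and 1.83, 1.87 and 10.5 CPM in co-culture. MO2 exceeded MO1 and MO3 by a log2 ratio of 3.51, the largest such gap among the 10 genes. The log2 fold change was 0.09 with an SE of 1.15 over 6 libraries, 0.49 with the covariate (edgeR adjusted p-value 0.220) and 0.91 without MO2 and MC3 (edgeR adjusted p-value 0.214), none of which passed. Tet1, on chromosome 10 (62804570 to 62908996, minus strand), measured 0.758, 2.20 and 1.09 CPM in MS-5 only and 1.04, 0.997 and 2.27 CPM in co-culture. In CPM, which is not scaled by length, Tet1 was below Tet2 in every library but MO3, and by far in MO2 and MC3. As TPM of protein-coding transcripts, Tet1 was above Tet2 in MO1, MC1 and MC2 (0.222, 0.163 and 0.251 against 0.0477, 0.149 and 0.196). Tet1 had 19 to 78 estimated counts per library, and its log2 fold change of 0.09 had a 95% interval from -1.24 to 1.41. Its SE was 0.55 over 6 libraries and 0.30 with the covariate.

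**Figure D2:**
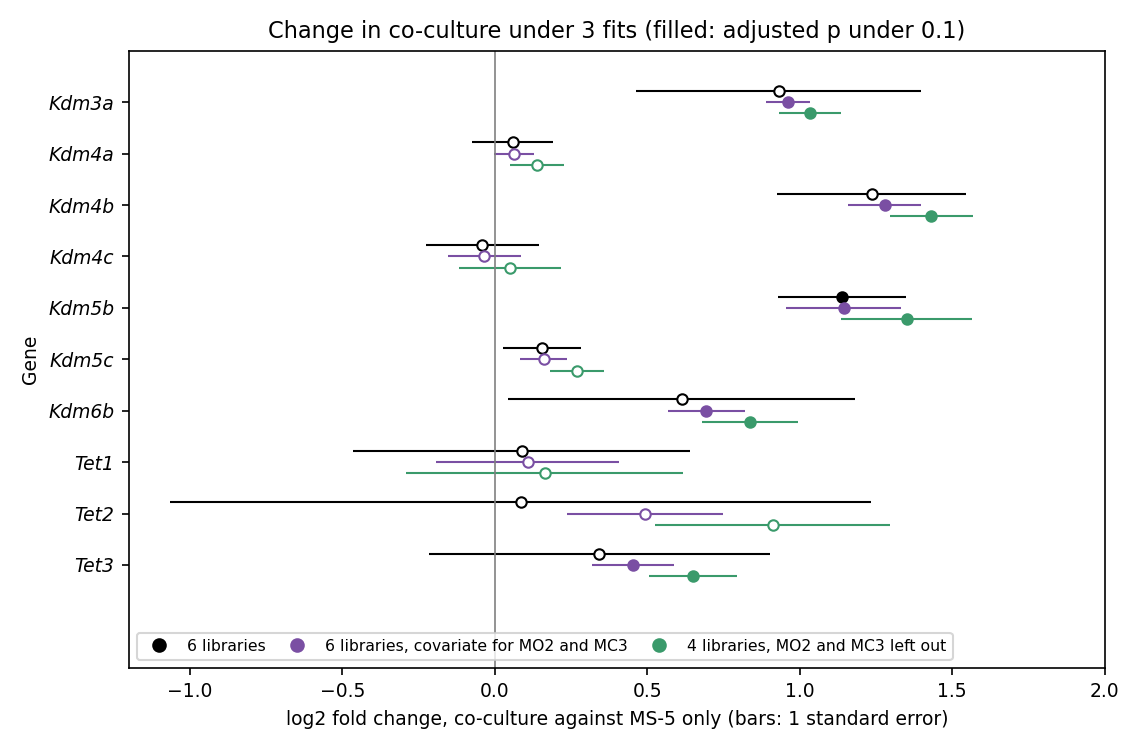
Log2 fold change of each gene in co-culture against MS-5 only (x axis) with bars of 1 standard error, for all 6 libraries (black), with a covariate for MO2 and MC3 (purple) and without these libraries (green). Filled points have an adjusted p-value under 0.1: Kdm5b alone in black, and Kdm3a, Kdm4b, Kdm5b, Kdm6b and Tet3 in purple and in green.

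The sizes of the changes were compared between the 2 sets of libraries. For Kdm3a, Kdm4b and Kdm5b the co-culture value was higher in both sets, with log2 ratios of 1.01, 1.41 and 1.33 among MO1, MO3, MC1 and MC2 and of 0.86, 1.03 and 0.78 for MC3 over MO2. For Kdm4a, Kdm4c and Kdm5c the ratios were near 0 in both sets, at most 0.25 in the first and between -0.16 and -0.01 in the second. Tet2 differed most, with 0.90 in the first set and -0.11 in the second. All 10 genes had the lower ratio for MC3 over MO2, a pair with 1 library on each side and hence no error. How often this order occurs among all genes tested was not computed, so it is not read as a trait of these genes. The median over all genes was -0.01 in the first set and -0.04 in the second.

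**Figure D3:**
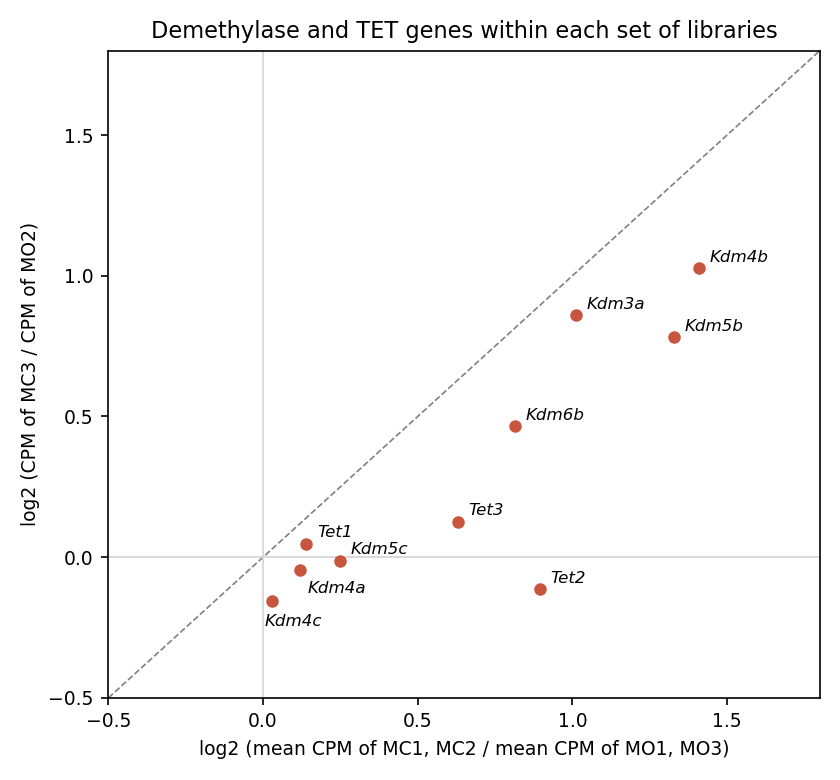
Log2 ratio of co-culture to MS-5 only for each gene among the 4 like libraries (x axis, mean of MC1 and MC2 over mean of MO1 and MO3) and between MC3 and MO2 (y axis). The dashed line marks equal ratios, and Kdm3a, Kdm4b and Kdm5b lie highest on the y axis, at 0.86, 1.03 and 0.78.

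Promoter sequences were read for genes that were higher in co-culture and for a gene with a change near 0, to show whether they carry the core letters that HIF binds. RefSeq promoters (GRCm38.p6, 250 bases before to 50 after a start) were given for 8 of the 10 genes, in 11 entries. The letters ACGTG and GCGTG were searched on both strands, and CACGTG therefore holds ACGTG on each strand. Either motif occurred in 4 of the 11 entries, in Kdm3a, Kdm4c, Kdm5b and Tet2, and in 43.8% of all 32851 promoters (ACGTG in 19.6%, GCGTG in 32.4%). Below, the matches on either strand are in capitals. Kdm5b is shown as the gene that rose, Kdm3a as a gene that passed with the covariate and Kdm4c as one with a change near 0. The entries are chr1:134559928-134560227 on the plus strand for Kdm5b, chr6:71632868-71633167 on the minus strand for Kdm3a and chr4:74251629-74251928 on the plus strand for Kdm4c.
Kdm5b: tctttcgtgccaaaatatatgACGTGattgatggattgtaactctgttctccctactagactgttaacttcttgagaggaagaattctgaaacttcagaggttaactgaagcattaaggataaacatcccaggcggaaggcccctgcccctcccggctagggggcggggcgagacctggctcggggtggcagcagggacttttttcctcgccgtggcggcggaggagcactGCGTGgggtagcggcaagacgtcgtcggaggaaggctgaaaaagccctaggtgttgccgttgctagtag
Kdm3a: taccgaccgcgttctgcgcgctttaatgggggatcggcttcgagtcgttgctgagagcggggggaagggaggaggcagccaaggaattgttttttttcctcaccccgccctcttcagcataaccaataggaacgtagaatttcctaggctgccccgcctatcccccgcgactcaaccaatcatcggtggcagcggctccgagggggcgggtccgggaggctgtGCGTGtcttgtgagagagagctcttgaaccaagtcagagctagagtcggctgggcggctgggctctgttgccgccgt
Kdm4c: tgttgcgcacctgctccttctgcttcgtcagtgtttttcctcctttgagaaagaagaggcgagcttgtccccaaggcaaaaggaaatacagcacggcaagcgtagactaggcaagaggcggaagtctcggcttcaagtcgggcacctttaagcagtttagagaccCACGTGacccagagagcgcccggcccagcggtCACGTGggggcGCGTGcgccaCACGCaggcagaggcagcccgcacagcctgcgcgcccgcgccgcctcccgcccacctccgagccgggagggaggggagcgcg
Kdm5b held 1 ACGTG and 1 GCGTG, and the Kdm3a entry shown held 1 GCGTG, where the other Kdm3a entries held neither. Kdm4c held the most, 4 matches of ACGTG in its CACGTG pairs and 2 of GCGTG, and its log2 fold change was -0.04. Of the 4 genes with a match, Kdm3a and Kdm5b passed in a fit and Kdm4c and Tet2 in none, Tet3 passed with the covariate and without MO2 and MC3 and held no match, and Kdm4b and Kdm6b had no entry.

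Levels were compared between genes per length, as TPM of protein-coding transcripts. In MS-5 only, Kdm5c (18.5 ± 7.04 TPM, SD, n = 3) and Kdm4a (17.5 ± 6.91) were the most abundant, followed by Kdm3a (10.4 ± 8.09), Kdm4b (8.16 ± 5.63), Kdm6b (6.38 ± 6.13), Kdm5b (4.40 ± 1.95), Kdm4c (4.08 ± 1.82), Tet3 (4.01 ± 3.96), Tet2 (0.548 ± 0.551) and Tet1 (0.192 ± 0.0601). This order of means includes MO2. In MO1 Tet1 (0.222 TPM) was above Tet2 (0.0477 TPM), and in MO1 and MO3 Kdm6b (2.91 and 2.77 TPM) was below Kdm4c (3.14 and 2.92 TPM). Neighbours in this order overlapped between libraries except Tet3 and Tet2, where the lowest Tet3 value (1.65 TPM) was above the highest Tet2 value (1.14 TPM). In co-culture Kdm3a (19.7 ± 13.8 TPM), Kdm5c (18.8 ± 5.69), Kdm4a (18.1 ± 6.09) and Kdm4b (18.0 ± 8.94) had the highest means. This order rests on MC3, since in MC1 and MC2 Kdm3a (11.8 and 11.8 TPM) and Kdm4b (13.7 and 12.1 TPM) were below Kdm5c (15.9 and 15.1 TPM) and Kdm4a (15.0 and 14.1 TPM). Sums were formed over the 10 genes alone, without other demethylases of the same marks such as Kdm3b and Kdm5a. Kdm3a, Kdm4a, Kdm4b and Kdm4c (H3K9 and H3K36) summed to 40.1 ± 22.4 TPM in MS-5 only and 59.7 ± 30.2 TPM in co-culture. Kdm5b and Kdm5c (H3K4) summed to 22.9 ± 8.82 and 28.3 ± 7.74 TPM, and the TET genes to 4.75 ± 4.51 and 5.66 ± 4.66 TPM. None of these sums separated the groups, because MO2 lay above MC1 and MC2 in each.

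Shares within a family were formed for 5 families from each library by itself, and in 3 of them the groups did not overlap. The sums did not hold every family member, and a share would be lower with more members in the sum. Kdm5a (mean 59.9 CPM in MS-5 only and 72.2 CPM in co-culture) was not in the Kdm5 sum. Jmjd1c (30.0 and 35.6 CPM) was not in the Kdm3 sum. Kdm4b made up 20.4%, 31.6% and 25.5% of the Kdm4a, Kdm4b and Kdm4c TPM in MO1 to MO3, and 43.4%, 41.1% and 48.0% in MC1 to MC3. Every co-culture library was above every MS-5 only library, MO2 included. Kdm5b made up 14.8%, 19.8% and 22.8% of the sum of Kdm5b and Kdm5c in MO1 to MO3 and 33.5%, 36.7% and 32.1% in MC1 to MC3, again without overlap. The share of Kdm3a in the sum with its paralog Kdm3b went from 35.4%, 47.1% and 39.7% to 52.5%, 49.8% and 59.6%, where the gap between MO2 and MC2 was small. The shares were formed after the levels had been seen, how often such shares separate among all genes was not computed, and an exact permutation test of 3 against 3 libraries cannot give a p-value below 0.1.

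The other family shares overlapped. Kdm6b took 29.3%, 53.4% and 29.7% of the sum of Kdm6a and Kdm6b in MO1 to MO3 and 43.3%, 30.4% and 55.4% in MC1 to MC3, with MO2 and MC3 the highest of their groups. Tet3 took 82.4% ± 7.30 of the TET sum in MS-5 only and 86.3% ± 2.02 in co-culture (SD, n = 3).

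Most of the signal came from transcripts annotated as protein-coding, but not for all genes or libraries. Transcripts of Kdm3a without a full coding sequence (retained introns, processed transcripts and nonsense-mediated decay targets) held 13.5% of its estimated counts in MO2 and 14.8% in MC3, against 3.09% to 7.12% in the other 4 libraries. For Tet2 they held 8.38% to 61.7%, of at most 359 counts, and for Tet1 1.70% to 44.4%, of at most 78 counts. In the other 7 genes they stayed at 3.30% or less in each library. A short transcript can weigh heavily in TPM: the 130-base processed transcript of Kdm4b had 6 counts in MO2 and 9 in MC3, which became 13.3 and 22.4 TPM. With protein-coding transcripts alone and the covariate, the same 5 genes passed against 12.7% of genes called higher, with log2 fold changes of 0.99 for Kdm3a, 1.30 for Kdm4b, 1.17 for Kdm5b, 0.71 for Kdm6b and 0.47 for Tet3.

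Kdm3a has 3 coding transcripts with counts, of nearly equal length (4753 to 4853 bases). Kdm3a-201 held 55.1%, 64.7% and 41.1% of their counts in MO1 to MO3 and 60.5%, 74.3% and 71.5% in MC1 to MC3. MC1 was below MO2, so the groups overlapped, and estimates for transcripts that share most of their sequence are uncertain. The main coding transcripts of Kdm5b kept about the same balance, with 46.1% to 56.1% for Kdm5b-203 over all libraries. Antisense genes overlap Kdm6b and Tet2 in the annotation and have no transcript of their own in the libraries' index, so reads from them would not be told apart where strand was ignored, and whether strand was used is not given in the sources used here.

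The other JmjC histone demethylases were read from the same fit. Of 14 listed, 12 were tested, and 0 passed over 6 libraries by edgeR (1 had an unadjusted p-value under 0.05, as did 14.3% of all genes tested, DESeq2's Wald test called 1, where it called 9.62% of all genes with an adjusted p-value, and limma called 0). That 1 gene was in each case Kdm8, at 7.38, 6.65 and 7.03 CPM in MS-5 only and 3.94, 3.12 and 4.77 CPM in co-culture, with all co-culture values the lower ones (log2 fold change -0.83, edgeR adjusted p-value 0.139). Kdm7a had the largest positive change (0.57, edgeR adjusted p-value 0.579). With the covariate 3 passed as higher, Jmjd1c, Kdm5a and Kdm7a, and Kdm8 as lower, 4 of 12 where 30.2% of all genes were called in that fit. The median log2 fold change of the 12 was 0.14, beside 0.25 for the 10 genes.

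With the covariate, 13.9% of all genes tested were called higher and 16.4% lower, and the counts with the covariate below stand beside these shares. Egln1, the prolyl hydroxylase that marks HIF for destruction, rose from 80.2, 50.5 and 76.5 to 180, 154 and 109 CPM (log2 fold change 1.10, edgeR adjusted p-value 0.0968). The Egln1 call was lost with a filter of 5 counts in 3 libraries, with protein-coding transcripts alone (edgeR adjusted p-value 0.140) and a replicate block (0.203), and without any one library but MC3 (0.149 to 0.300). With the covariate it passed (edgeR adjusted p-value 0.00729). Egln2 (-0.07) and the asparaginyl hydroxylase Hif1an (-0.26) did not pass over 6 libraries. Hif1an was lower with the covariate (edgeR adjusted p-value 0.0536). Alkbh5, which removes N6-methyladenosine from RNA, rose from 137, 128 and 138 to 223, 203 and 207 CPM (0.65, edgeR adjusted p-value 0.0742), the only gene to do so of the 9 listed from the AlkB family, Fto included. The Alkbh5 call was lost without any one library (edgeR adjusted p-values from 0.103 to 0.300), with no filter (0.116), protein-coding transcripts alone (0.117) and a replicate block (0.344), and in limma (0.401 to 0.454). With the covariate it passed (edgeR adjusted p-value 0.0105). Alkbh8 (-0.45) and Alkbh1 (-0.43) had the next largest values of that list, in which 1 gene was higher and 4 were lower with the covariate. Of 8 other JmjC proteins none passed over 6 libraries by edgeR, with 1 under an unadjusted p-value of 0.05, and with the covariate 1 was higher and 3 were lower. Riox2 had -0.69 (edgeR adjusted p-value 0.0142 with the covariate) and Jmjd6 0.53 (0.0439). Riox2 was also the 1 gene of the 8 called by DESeq2's Wald test (adjusted p-value 0.0675) and with library size scaling (0.0924), and limma called 0. Neither of the flavin-dependent H3K4 demethylases, which also use oxygen but not 2-oxoglutarate, passed over 6 libraries by edgeR, DESeq2's Wald test or limma (Kdm1a 0.44, Kdm1b -0.06), and 1 had an unadjusted p-value under 0.05. Kdm1a passed with the covariate (0.45, edgeR adjusted p-value 0.0391) and without MO2 and MC3 (0.58, 0.0846).

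The enzymes that write the opposing histone marks were called in some fits and not in others. Of 6 H3K9 methyltransferases 0 passed over 6 libraries by edgeR and 3 had an unadjusted p-value under 0.05, with Suv39h2 at -0.94 (edgeR adjusted p-value 0.114) and Setdb2 at -0.61 (0.147), where all co-culture libraries lay below all MS-5 only libraries. Such a pattern was seen for 9.60% of all genes tested. With the covariate 3 of the 6 were lower, Suv39h2 (edgeR adjusted p-value 0.0138) and Setdb2 (0.0205) among them. DESeq2's Wald test also called 3 as lower (adjusted p-value 0.0142 for Suv39h2 and 0.0459 for Setdb2), library size scaling called 2, with Suv39h2 at 0.0861, and limma called 0. The 6 H3K4 methyltransferases lay between -0.02 and 0.24, with Setd1b at 0.24 and Kmt2a at 0.17, and none had an unadjusted p-value under 0.05 or was called by DESeq2's Wald test or limma. With the covariate 1, Setd1b, was higher (edgeR adjusted p-value 0.0903). Without MO2 and MC3 the 1 gene called higher was Kmt2a (0.64, edgeR adjusted p-value 0.0792). Of the 4 Polycomb genes for H3K27 none passed over 6 libraries by edgeR and 2 had an unadjusted p-value under 0.05, with Ezh2 at -0.53 (edgeR adjusted p-value 0.129) and its paralog Ezh1 at 0.47 (0.263). With the covariate Ezh2 was lower (edgeR adjusted p-value 0.0230) and Ezh1 higher (0.0167). DESeq2's Wald test called Ezh2 alone (adjusted p-value 0.0294), and limma called 0 of the 4.

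For DNA methylation, Uhrf1, which guides the maintenance methyltransferase to newly copied DNA, fell from 182, 182 and 133 to 87.1, 79.3 and 94.9 CPM (log2 fold change -0.93, edgeR adjusted p-value 0.0734), against 0.666% of genes called lower. The call was lost without any one library but MC3 (edgeR adjusted p-values from 0.149 to 0.300), with library size scaling (0.151), protein-coding transcripts alone (0.125) and a replicate block (0.216), and in limma (0.478 to 0.530). With the covariate Uhrf1 passed (edgeR adjusted p-value 0.0125). Uhrf1 (56303321 to 56323486, plus strand) lies just upstream of Kdm4b on chromosome 17, so that the neighbours had changes of opposite sign. Dnmt1 (-0.25) and Dnmt3a (0.25) passed neither over 6 libraries nor with the covariate. Of the 3 TET partners tested none passed over 6 libraries by edgeR and 1 had an unadjusted p-value under 0.05, with Cxxc5 at 0.56 and the glycosylase gene Tdg at -0.26. Cxxc5 was higher with the covariate (edgeR adjusted p-value 0.0168), without MO2 and MC3 (0.0790) and in DESeq2's Wald test (0.0697), and limma called 0 of the 3. None of 14 genes that make or use 2-oxoglutarate passed over 6 libraries by edgeR or limma, 1 had an unadjusted p-value under 0.05, DESeq2's Wald test called 1 as lower, and 4 were lower with the covariate, with Idh3a, a subunit of the mitochondrial isocitrate dehydrogenase, at -0.46.

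Of 11 hypoxia-inducible genes listed as a reference, 10 were tested and 8 rose: Bnip3 (log2 fold change 2.68), Pdk1 (2.19), Ankrd37 (2.14), Slc2a1 (1.42), P4ha1 (1.33), Egln1 (1.10), Ndrg1 (1.08) and Adm (0.82), with edgeR adjusted p-values from 0.0269 to 0.0968. Vegfa had 1.10 and did not pass over 6 libraries (edgeR adjusted p-value 0.209) but did with the covariate (1.08, 0.0218), which gave 9 of 10 as higher, and in DESeq2's Wald test (0.0486). Car9, at under 1 CPM, had -0.42. The list was chosen with its response in these libraries known. The calls over 6 libraries of these 8 genes and of Kdm5b, Alkbh5 and Uhrf1 were all lost when any one of MO1, MO2 and MO3 was left out (edgeR adjusted p-values from 0.136 to 0.305). Of the hypoxia-inducible genes, 4 passed without MC1, 5 without MC2 and 6 without MC3, 4 with a replicate block, 2 of 9 tested with protein-coding transcripts alone and 5 to 6 in limma.

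**Figure D4:**
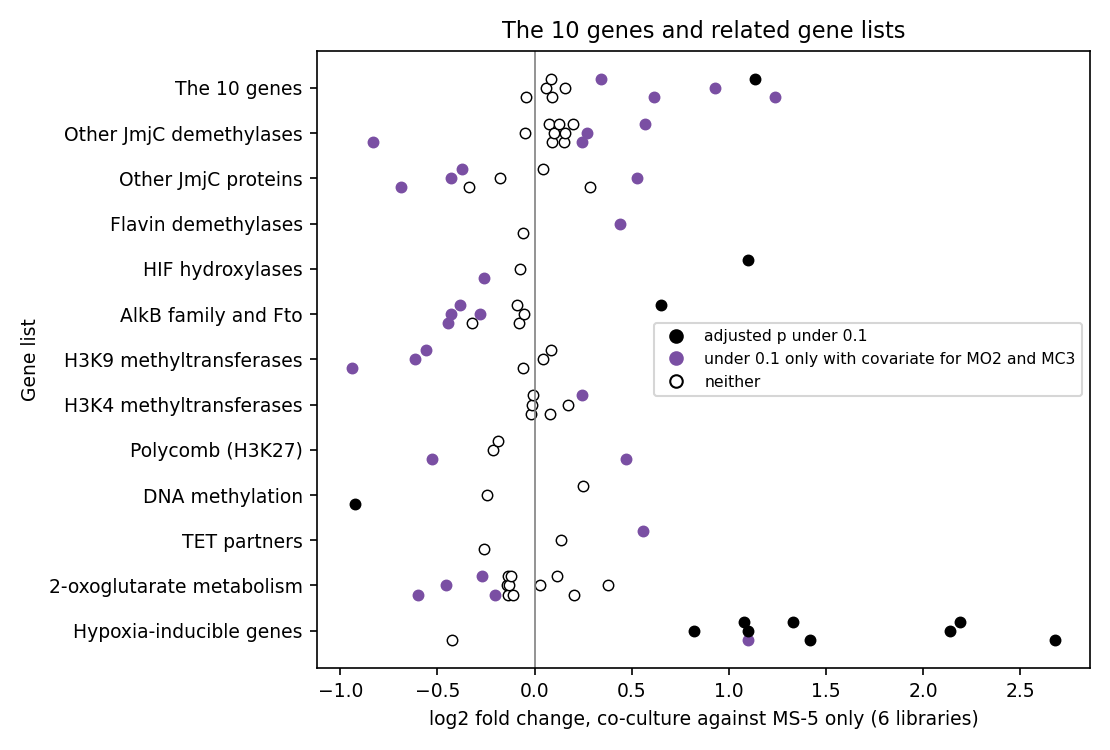
Log2 fold change over 6 libraries (x axis) of every tested gene in the 10-gene set and in related lists (rows), black where the adjusted p-value is under 0.1, purple where this holds only with the covariate for MO2 and MC3, open otherwise. Hypoxia-inducible genes lie furthest right, up to 2.68 for Bnip3, and Kdm5b is the single black point in the top row.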

How the data were processed

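RNA-seq of MS-5 cells alone and after co-culture with SKM-1 cells was analysed in 6 libraries, grouped by their labels. Libraries were made with a stranded mRNA kit, and the authors quantified reads with kallisto 0.43.0 on a mouse cDNA index (FastQC 0.11.7 and sleuth 0.30.0 are also named in the submitters' processing notes). The authors deposited, per transcript, estimated counts that are not normalized between libraries, TPM values, and the length and effective length. Human reads left after cell separation would be counted only where they match mouse sequence.

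Of 118489 transcripts, 116728 matched GENCODE M21 (GRCm38) by version and length, and 1761 were left out (0.476% to 0.562% of counts). Estimated counts were summed per gene, rounded, filtered with filterByExpr (13221 genes of 35968), and normalized by TMM (factors 0.923 to 1.17). The group difference was tested per gene in R 4.3.3 with the quasi-likelihood functions of edgeR 4.0.16, adjusting p-values over all genes tested by the Benjamini-Hochberg method (threshold 0.1). The SE is the log2 fold change over the square root of F, and 95% intervals use the fit's degrees of freedom. The scripts were tested on simulated data. Alternatives were DESeq2 1.42.0 (size factors, Wald test), library size scaling, and limma 3.58.1 fitted to log2 TPM after adding 0.1, 0.5 or 1, for genes with a mean TPM of at least 0.1. Others were an effective length offset, a filter of 5 counts in 3 libraries, no filter, a replicate block, each library left out, and a threshold of 0.05. A covariate for MO2 and MC3, which were picked from the libraries themselves and not by a label, was also fitted. MO2 and MC3 left out, protein-coding transcripts alone (also with the covariate) and MC2 left out with the covariate were added after seeing the data.

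The genes and lists were chosen with earlier results of these data known. All 10 genes are named, and of each related list every gene past the threshold plus the 2 largest changes, except 1 gene that is not reported here. Jmjd1c and Kdm5a were named after their values were seen. Promoters are from RefSeq (GRCm38.p6).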

Additional observations from a re-analysis of the deposited data

How the results depend on the processing

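Of the 10 genes, 1 passed over 6 libraries. This became 2 in DESeq2's Wald test and with no filter, 5 with the covariate, without MO2 and MC3, and with protein-coding transcripts and the covariate, 4 without MC2 with the covariate, and 0 with library size, with limma on log2 TPM at each pseudocount, with protein-coding transcripts alone and at a threshold of 0.05. With 1 library left out it ranged from 0 to 1. For all genes, 579 (491 higher) became 1268 in the Wald test, 3999 (1835 higher) with the covariate, 1702 (1087 higher) without MO2 and MC3, 3037 without MC2 with the covariate, 3 with protein-coding transcripts alone, 3422 with the covariate added, 344 and 164 in limma with pseudocounts of 0.5 and 1, 2 at a threshold of 0.05, and 0 to 549 with 1 library left out, 0 without any MS-5 only library. The other JmjC demethylases went from 0 to 1 in the Wald test, 4 with the covariate, 2 without MO2 and MC3, 2 without MC2 with the covariate and 5 with protein-coding transcripts and the covariate. The cause was not tested.

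Signs turned for Kdm4c (0.049 without MO2 and MC3, and 0.094, 0.084 and 0.074 in limma at pseudocounts of 0.1, 0.5 and 1), Tet2 (-0.21, -0.15 and -0.12 in limma at the same pseudocounts), Kdm1b (0.012 without MO2 and MC3) and Car9 (0.12 and 0.017 in limma at 0.1 and 0.5). With 1 library left out, log2 fold changes ran from -0.12 to 0.090 for Kdm4c, -0.41 to 0.63 for Tet1, -1.27 to 2.24 for Tet2, -0.15 to 1.12 for Tet3, -0.19 to 0.11 for Kdm1b, -0.17 to 0.052 for Egln2, -0.99 to 0.12 for Alkbh1, -0.58 to 1.36 for Kmt2a, -0.21 to 1.01 for Dnmt3a, -0.55 to 0.21 for Dnmt1 and -0.84 to 0.0068 for Car9. Kdm3a, Kdm4a, Kdm4b, Kdm5b, Kdm5c and Kdm6b kept a positive sign under every alternative run, but with 1 library left out ran from 0.46 to 1.48, 0.0032 to 0.15, 1.04 to 1.60, 0.98 to 1.27, 0.096 to 0.25 and 0.062 to 1.36 in that order.

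Same-numbered libraries correlated at 0.53, -0.29 and -0.52 in their deviations from the group means, so the numbers do not pair them. A replicate block gave 444 genes, 371 of them shared with the unblocked 579, and Kdm5b as the 1 called gene of the 10 (adjusted p-value 0.092). Tet1 and Tet2 had the fewest counts of the 10 genes, and their SE fell with the covariate from 0.55 to 0.30 and from 1.15 to 0.26. An exact test of 3 against 3 libraries cannot go below 0.1.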
